A study of Torulaspora delbrueckii with 17 samples.

Results

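Orc1 binding was compared between a sir2 mutant and wild type of the budding yeast Torulaspora delbrueckii by chromatin immunoprecipitation and sequencing (ChIP-seq) of Orc1 carrying a MYC tag. The comparison rests on 4 of the 15 deposited peak lists and on every peak in them, 1930 of the 5717 peaks of the series. The sir2 lists held 651 and 671 peaks and the wild-type lists 300 and 308. The 2 sir2 libraries came from strain LRY3206, which carries Orc1-MYC and the sir2 mutation; the labels do not give the kind of allele. The first wild-type library came from strain LRY3204, labelled SIR, and the second from strain LRY3211, which also carries Kos3 with a V5 tag. Cells of all 3 strains grew in rich medium (YPD), were cross-linked with formaldehyde and were precipitated with the same antibody against MYC. Single values are also given from 1 further Orc1 library, of strain LRY3205, labelled kos3, whose list held 299 peaks. It is not part of the group comparisons.

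Orc1 is the largest subunit of the origin recognition complex, which marks the places where DNA replication can start. In Saccharomyces cerevisiae, Orc1 also helps to recruit silencing proteins to the silencers of the silent mating-type loci. Sir2 is a histone deacetylase; in that yeast it acts with the other Sir proteins in silent chromatin at mating-type loci and chromosome ends, and separately at the ribosomal DNA. The comparison describes where Orc1 peaks differ between the sir2 strain and the wild-type strains. Roles of named genes below are those known for the S. cerevisiae genes of the same name.

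The 2 wild-type lists did not behave as repeats of each other at chromosome ends, where the second covered 121 kb and the first 51.7 kb in the outer 20 kb summed over the ends of chromosomes 1 to 7. The second wild-type library differs from the first in strain, Kos3 tag and input library, which cannot be told apart. The first wild-type library and both sir2 libraries were called against the same input, so that values against it are given as well. The design text calls the libraries of each pair technical replicates, and both sir2 libraries come from 1 strain. In every mean and test n counts libraries. SDs measure the spread between libraries, which is technical in sir2, and p-values rest on relabelling the libraries. Folds are the authors' enrichment over background in each list and are used to order peaks within a list. At 158 sites matched one to one in the 4 lists, on chromosomes 1 to 7 and over 20 kb from an end, the median fold was 7.89 and 8.63 in the sir2 lists and 8.11 and 9.10 in the wild-type lists. With 2 libraries against 2, an exact permutation test cannot go below p = 0.3333. Of 10 group comparisons made below, 9 gave this smallest p of the two-sided exact permutation test (Benjamini-Hochberg adjusted p = 0.370), and in these 9 the groups did not overlap. The SIR2 gene itself lies on chromosome 4 at 864988 to 866646; no list had a peak within 5 kb of it, and peak lists cannot show whether the gene is present.

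On chromosomes 1 to 7 the sir2 lists held slightly fewer Orc1 peaks, 248 and 252, against 266 and 274 in wild type. The means were 250 ± 2.83 in sir2 and 270 ± 5.66 in wild type (SD, n = 2 each), a ratio of 0.926. On the eighth chromosome the sir2 lists held 403 and 419 peaks, against 34 in each wild-type list. That is a ratio of 12.1 on a chromosome that makes up 9.05% of the bases of the 8 chromosomes. With peaks of a −log10 q of at least 10 alone, the eighth chromosome held 39 and 52 peaks in sir2, against 28 and 28 in wild type, a ratio of 1.63. On each of chromosomes 1 to 7, every list held between 28 and 47 peaks. Chromosome 1 had 39 peaks in each sir2 list, against 45 and 44 in wild type, and chromosome 7 had 33 in each sir2 list, against 29 and 30. The eighth chromosome is therefore described apart from the other 7.

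**Figure D1:**
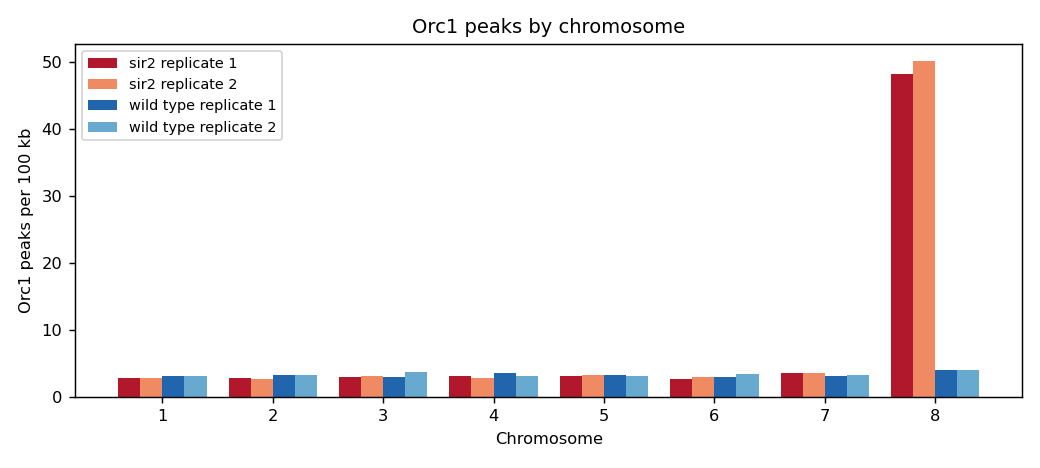
Orc1 peaks per 100 kb on each chromosome (bars start at 0), with 1 bar per library. The sir2 bars stand apart from the wild-type bars on the eighth chromosome, with 403 and 419 peaks against 34 and 34.

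Away from the chromosome ends, Orc1 sites of chromosomes 1 to 7 were found in both genotypes at nearly the same positions. Of 208 regions that both wild-type lists had on chromosomes 1 to 7, ends included, 93.3% and 93.8% had a peak in the first and second sir2 list (mean 93.5% ± 0.340, SD, n = 2). At the 158 matched sites the summits of a sir2 and a wild-type list lay a median of 21.5 to 32.0 bp apart. The summits of the 2 sir2 lists lay a median of 26.5 bp apart and those of the 2 wild-type lists 24.0 bp. No pair of lists had a summit shift of over 500 bp at any of these sites. Matching one to one requires overlapping peaks, which by itself limits these distances. Summits lay outside annotated genes at 122 and 124 of these sites in sir2 and at 122 and 120 in wild type.

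The peaks at these sites were about equally wide. Their median width was 989.5 and 1022 bp in the sir2 lists, against 967 and 933.5 bp in the wild-type lists, a ratio of 1.06. Both sir2 widths exceeded both wild-type widths at 47 of the 158 sites (29.7%) and fell below both at 28 (17.7%). The site between TIM18 and RNH1 on chromosome 2 showed the largest such ratio. Its peaks measured 594 and 657 bp in sir2, against 340 and 234 bp in wild type. The site between TDEL0E05590 and TDEL0E05600 on chromosome 5 followed, with 509 and 519 bp in sir2 against 272 and 247 bp in wild type. The other sites with the largest ratios lay in PRP39, a splicing factor gene, in TDEL0E02370, and between NCW2 and NMT1, with ratios from 1.81 to 1.88. The smallest ratios lay beside TOP3, which encodes a DNA topoisomerase, and between UBA2 and IDH2. The TOP3 site had 335 and 312 bp in sir2, against 694 and 410 bp in wild type. The UBA2 site had 517 and 278 bp in sir2, against 713 and 590 bp in wild type. The next lay beside ECM15, between EFM5 and ERG26, and beside DNM1, with ratios from 0.67 to 0.70.

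The order of sites by fold was largely kept. Among 163 one-to-one sites of chromosomes 1 to 7, a site's rank differed by a median of 9 places between the sir2 lists, 10 places between the wild-type lists and 12 to 18 places between a sir2 and a wild-type list. The strongest site in both sir2 lists lay between NDT80, which encodes a meiotic transcription factor, and KRE33. It had folds of 27.0 and 28.5 in sir2 and ranked first and second in the wild-type lists, with folds of 23.8 and 24.9. It was picked out after its values were seen.

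Both sir2 ranks were stronger than both wild-type ranks at 51 of the 163 sites (31.3%) and weaker at 42 (25.8%). The site between VAM3 and POL1 on chromosome 6 was among the most raised. POL1 encodes the catalytic subunit of the primase-associated DNA polymerase. The site ranked 3 and 7 in the sir2 lists, against 46 and 50 in the wild-type lists. The site between GLO4 and PCH2 on chromosome 2 ranked 66 and 68 in sir2 and 125 and 133 in wild type. The other most raised sites lay between DAS2 and TCM62, beside LEC1 and in RGL1. The site between NAM7, a helicase gene of nonsense-mediated RNA decay, and YJU3 on chromosome 1 was among the most lowered. It ranked 71 in both sir2 lists, against 10 and 9 in the wild-type lists. A site between the tRNA genes TDEL0Btrna9E and TDEL0Btrna10E on chromosome 2 ranked 106 and 105 in sir2, against 53 and 18 in wild type. A site between 2 other tRNA genes of chromosome 2, TDEL0Btrna13K and TDEL0Btrna3H, ranked 82 and 79 in sir2, against 33 and 30. The others lay in SSP1 on chromosome 7 and at the right end of chromosome 6, beyond TDEL0Ftrna5T. Since 3 of these 5 lie beside tRNA genes, all sites with a tRNA gene within 1 kb of the summit were counted, a split chosen after these values were seen. Of 34 such sites, 10 were weaker and 5 stronger in sir2, and of the 129 others, 32 were weaker and 46 stronger. The 10 include both sites between tRNA genes named above, which prompted the split. The summit at the right end of chromosome 6 lies over 1 kb from TDEL0Ftrna5T and is not among the 34.

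**Figure D2:**
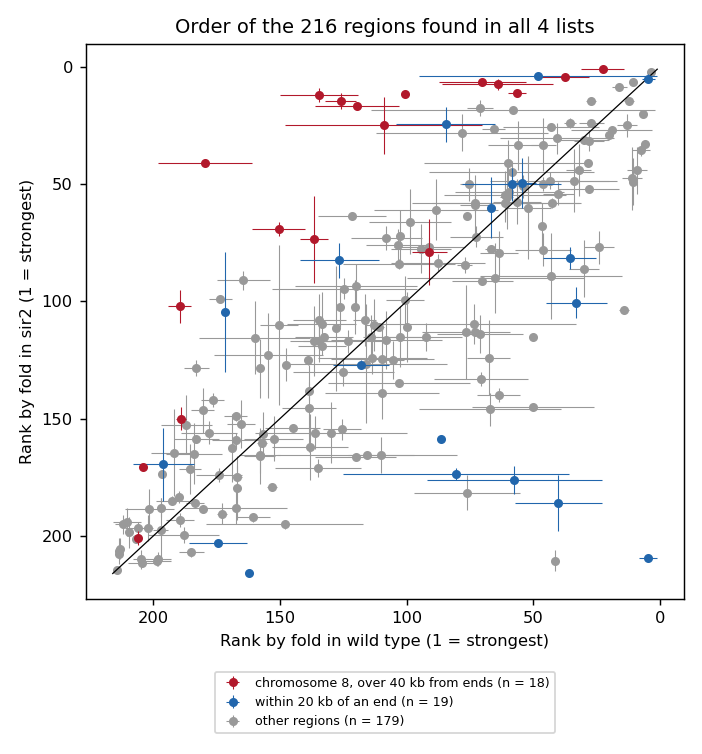
Rank by fold of the 216 regions found in all 4 lists, in sir2 (vertical axis) against wild type (horizontal axis), 1 being the strongest. Points are the mean of the 2 libraries of a group, bars run from one library to the other, and the line marks equal ranks; 17 of the 18 red points have both sir2 ranks stronger than both wild-type ranks.

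Few places on chromosomes 1 to 7 had peaks in both lists of one genotype and in neither list of the other. Regions in a single list were more frequent, 18 and 29 in the sir2 lists and 20 and 59 in the wild-type lists. Regions are called gained when both sir2 lists and no wild-type list had a peak, and lost when both wild-type lists and no sir2 list had one. Over all chromosomes, 912 linked regions held 176 gained (19.3%), 15 lost (1.64%) and 216 in all 4 lists (23.7%). Of 342 linked regions on chromosomes 1 to 7, 193 (56.4%) were in all 4 lists, 12 (3.51%) were in both wild-type lists and no sir2 list, and 2 (0.585%) were in both sir2 lists and no wild-type list. The 2 gained regions were weak. One, from 334222 to 334602 in UGA3 on chromosome 3, had folds of 2.35 and 2.19; UGA3 encodes an activator of 4-aminobutyrate use. The other, from 613003 to 613366 in TDEL0G03300 on chromosome 7, had folds of 2.25 and 2.11. The peaks of each sir2 list that met no wild-type peak, those in the gained regions included, numbered 22 and 35, with median folds of 2.07 and 2.25. Of these, 5 and 8 had a summit outside genes, and 0 and 2 lay within 20 kb of a chromosome end. The wild-type lists had 59 and 73 peaks that met no sir2 peak, with median folds of 2.11 and 2.28. Of those, 22 and 49 lay within 20 kb of an end.

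Of the 12 lost regions, 4 lay within 20 kb of a chromosome end, and 11 had a mean wild-type fold of at most 3.41. The exception was the region in SLA2 on chromosome 3, at 1050692 to 1051876. SLA2 encodes an endocytic adaptor, and in Kluyveromyces lactis the gene borders the mating-type locus. Neither sir2 list had a peak within 5 kb of SLA2, where the wild-type lists covered 1408 and 3851 bp, with top folds of 7.497 and 12.5. The neighbouring region from 1048410 to 1050212, between TDEL0C05800 and TDEL0C05810, was absent from both sir2 lists as well and had wild-type folds of 1.95 and 4.87. The regions next in wild-type fold lay at chromosome ends. They were at 1248 to 3286 on chromosome 1, beyond TDEL0A00100, at 6499 to 7525 on chromosome 6, beside TDEL0F00120, and at 11 to 2125 on chromosome 6, in TDEL0F00100. A region at 15526 to 16810 on chromosome 1 lay between the tRNA genes TDEL0Atrna8A and TDEL0Atrna5Y. The remaining regions named here lay in the interior. They lay between POX1 and CHC1, between CYB2 and a tRNA gene, and beside SAL1, with mean wild-type folds from 2.47 to 2.53. The last of the 10, in FKS3 on chromosome 7, had folds of 1.89 and 2.76.

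Chromosome ends were where sir2 and wild type differed most on chromosomes 1 to 7. In the outer 20 kb of the 14 ends, Orc1 peaks covered 20.6 and 19.9 kb in sir2, against 51.7 and 121 kb in wild type. The mean in sir2 was 20.3 ± 0.467 kb and in wild type 86.6 ± 49.3 kb (SD, n = 2 each). This is a ratio of 0.234, and of 0.392 against the first wild-type library alone. Over 20 kb from the ends the lists covered 201 and 197 kb in sir2 and 208 and 227 kb in wild type, a ratio of 0.914. The sir2 lists covered less than both wild-type lists in each distance class up to 100 kb. In the outer 5 kb the ratio was 0.312, or 0.420 against the first wild-type library alone. From 5 to 10 kb it was 0.135, or 0.301 against that library, and from 10 to 20 kb it was 0.166, or 0.378. From 20 to 40 kb it was 0.355, or 0.443. From 40 to 100 kb the sir2 lists covered 28.8 and 27.7 kb, against 36.2 and 54.0 kb in wild type, a ratio of 0.626, or 0.780 against the first library. Without the left arm of chromosome 5, the sir2 lists covered 22.3 and 20.5 kb in this class. The wild-type lists then covered 23.6 and 21.8 kb, so that the groups overlapped. At 100 kb or more from an end, the sir2 lists covered 165 and 162 kb and the wild-type lists 156 and 150 kb.

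Both sir2 lists covered less than both wild-type lists at 12 of the 14 ends. The largest differences were at the left end of chromosome 2 and the right end of chromosome 3. The left end of chromosome 2 had 577 and 269 bp covered in sir2, against 9011 and 18787 bp in wild type. Its strongest wild-type peaks lay in TDEL0B00100, with folds of 21.0 and 27.6 and widths of 6396 and 16933 bp. In the same gene the sir2 lists had weak peaks of at most 334 bp, with top folds of 2.39 and 2.63. The right end of chromosome 3, which holds HML, had 289 and 200 bp in sir2, against 4940 and 16667 bp in wild type. The right end of chromosome 2 had 0 and 217 bp in sir2, against 1034 and 5411 bp in wild type. At the left end of chromosome 1 the sir2 lists covered 1042 and 1235 bp, with top folds of 1.35 and 1.89, against 2658 and 7443 bp in wild type, with top folds of 5.54 and 6.05.

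The right ends of chromosomes 1 and 5 had a strong peak in sir2 but less covered length. The right end of chromosome 1 had top folds of 21.5 and 22.7 in sir2, against 28.7 and 10.5 in wild type. Its covered length was 3559 and 3571 bp in sir2, against 6381 and 12150 bp in wild type. The right end of chromosome 5 had 2312 and 2147 bp in sir2, against 3581 and 5868 bp in wild type, and top folds of 19.5 and 23.3 in sir2 against 21.8 and 27.0 in wild type. The left end of chromosome 7 had 2738 and 1980 bp in sir2, against 7536 and 14710 bp in wild type, with top folds of 3.91 and 5.39 in sir2 against 9.68 and 16.2 in wild type. The left ends of chromosomes 4, 5 and 6 and the right ends of chromosomes 4 and 6 had mean ratios from 0.156 to 0.515, and from 0.362 to 0.675 against the first wild-type library alone. The 2 ends that did not separate the strains were the left end of chromosome 3, with 1417 and 1312 bp in sir2 and 1345 and 2670 bp in wild type, and the right end of chromosome 7, with 682 and 454 bp in sir2 and 508 and 472 bp in wild type. Against the first wild-type library alone, 6 of the 14 ends had a ratio under 0.5. The single kos3 library, called on the same input as sir2, covered 364 bp at the left end of chromosome 2. Its cover varied against sir2 from end to end. At the right end of chromosome 3 and the left end of chromosome 7 it covered 1568 and 4680 bp. Both values lay above both sir2 lists and below both wild-type lists. At the left end of chromosome 5 it covered 676 bp, less than both sir2 lists.

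**Figure D3:**
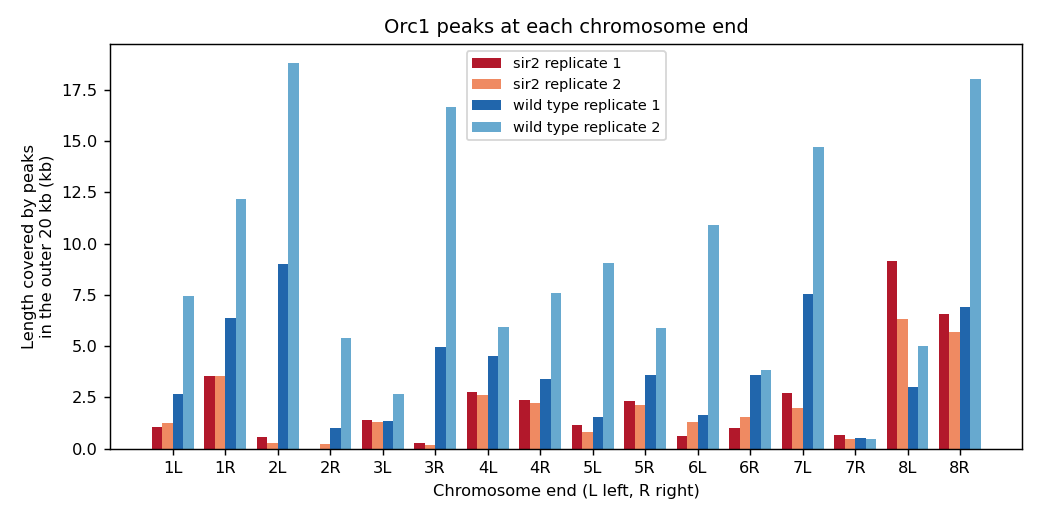
Length covered by Orc1 peaks in the outer 20 kb of each chromosome end (bars start at 0), with 1 bar per library. On chromosomes 1 to 7 the sir2 bars are below both wild-type bars at 12 of 14 ends, and the second wild-type library has the highest bar at each of these 12.

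Genes near the ends followed the same direction. Of 91 genes within 20 kb of an end of chromosomes 1 to 7, 14 and 15 had a peak in the gene or within 1 kb in the sir2 lists, against 28 and 51 in the wild-type lists. Of these genes, 11 had one in both wild-type lists and no sir2 list, and 0 the other way round. Over all 4703 genes of these chromosomes the counts were 34 (0.723%) and 5 (0.106%). On chromosomes 1 to 7, peaks over 3 kb numbered 1 and 1 in sir2, against 10 and 13 in wild type.

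The silent mating-type locus HML, near the right end of chromosome 3, had much less Orc1 cover in sir2 than in wild type. HML holds a copy of the α mating-type genes that silent chromatin keeps off in related yeasts. With 5 kb on either side of HML (1273613 to 1275265, assembly ASM24337v1), peaks covered 1113 and 1153 bp in sir2, against 6081 and 11203 bp in wild type. This is a ratio of 0.131, and the first wild-type library gave 0.186. The first wild-type list had a peak at 1273430 to 1278369 with a fold of 7.85, and the second a peak at 1269063 to 1281438 with a fold of 14.7, both with a summit between HMLALPHA1 and TDEL0C07020. No sir2 peak lay at those summits. The first sir2 list had a peak of 289 bp in HMLALPHA1 with a fold of 2.44, and the second had a peak of 200 bp at 1277471 to 1277670 with a fold of 2.36. A neighbouring peak beside VAC17 was present in both, with folds of 4.84 and 5.15 in sir2 and 5.31 in the first wild-type list; in the second it was part of the wide peak. The kos3 library covered 2338 bp of the window, with a top fold of 5.65. Silent mating-type genes in related yeasts share sequence with the expressed copy, and ribosomal DNA is repeated. How reads that match several places were treated is not given in the sources used here, so values at both loci are uncertain. HMLALPHA1 and HMLALPHA2 had a peak within 1 kb in the first sir2 list and not in the second, and in both wild-type lists. Of 16 silencing genes on chromosomes 1 to 7, 1 and 2 had a peak in sir2, against 2 and 2 in wild type, and ABF1, which encodes a silencer-binding protein, had one in all 4 lists. Over all 4703 genes of these chromosomes, 11.7% and 11.7% had a peak within 1 kb in the sir2 lists, against 12.5% and 12.5% in the wild-type lists.

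A wide domain on the left arm of chromosome 5, picked out after its values were seen, showed a similar narrowing. From 48 to 80 kb the sir2 lists covered 6.50 and 7.22 kb, against 12.6 and 31.3 kb in the wild-type lists. The second wild-type list had a single peak there, from 48121 to 79393. The first had a peak of 4132 bp beside TDEL0Etrna12V with a fold of 24.8, at a place where the sir2 peaks measured 1133 and 1545 bp, with folds of 10.2 and 10.2. A pair of peaks at 51 to 57 kb was present in sir2, with top folds of 15.6 and 17.1. The first wild-type list had a wide peak there with a fold of 11.6 and, beside it, a peak of 200 bp with a fold of 1.86. SIR1, a silencing gene, lies at 79261 to 80661, and the wide peak of the second wild-type list reaches into its start.

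**Figure D4:**
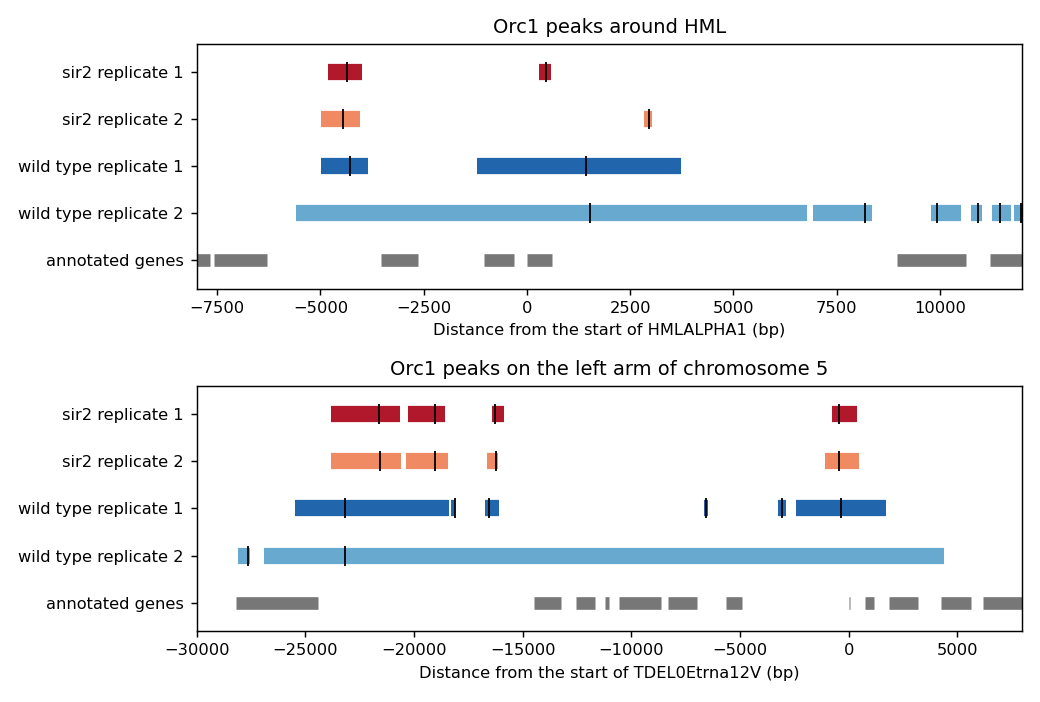
Orc1 peaks of each library (boxes, with a black line at the summit) around HML and on the left arm of chromosome 5, by distance in bp from the start of HMLALPHA1 or TDEL0Etrna12V, with annotated genes in grey. In HML with 5 kb on either side, the sir2 rows hold 1113 and 1153 bp of peaks, and the wild-type rows 6081 and 11203 bp.

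The eighth chromosome in sir2 carried a dense array of weak peaks that wild type lacked. Of the sir2 peaks there, 371 of 403 and 387 of 419 overlapped no wild-type peak. Their median fold was 2.16 and 2.302 and their median width 306 and 309 bp. Of these, 1 in each list had a fold of 4 or more, and 13.7% and 12.7% had a summit outside genes. Summits lay outside genes for 18.4% and 17.4% of all sir2 peaks of this chromosome, against 76.5% and 79.4% of wild-type peaks, while 22.4% of its bases lie outside genes. On chromosomes 1 to 7 that share was 70.6% and 70.6% in sir2 and 73.3% and 69.7% in wild type, groups that overlapped (exact permutation p = 1).

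The excess of sir2 peaks lay to the left of the ribosomal DNA. In 15 windows of 50 kb from the left end the lists held 11 to 37 and 15 to 38 summits in sir2, with a median of 26 in both, against 0 to 3 and 0 to 6 in wild type, with a median of 1 in both. In all, the peaks covered 190 and 183 kb in sir2, against 30.1 and 42.5 kb in wild type, a ratio of 5.13, or 1.60 with a −log10 q of at least 10. To the left of the ribosomal DNA the median gap between peaks was 865 and 843.5 bp in sir2, against 33834 and 27877 bp in wild type. To its right the lists held 10 and 8 peaks in sir2 and 9 and 6 in wild type. The kos3 library, called on the same input, held 35 peaks on this chromosome. Peak lists hold no read depth, so the amount of DNA from the eighth chromosome in these libraries was not tested.

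**Figure D5:**
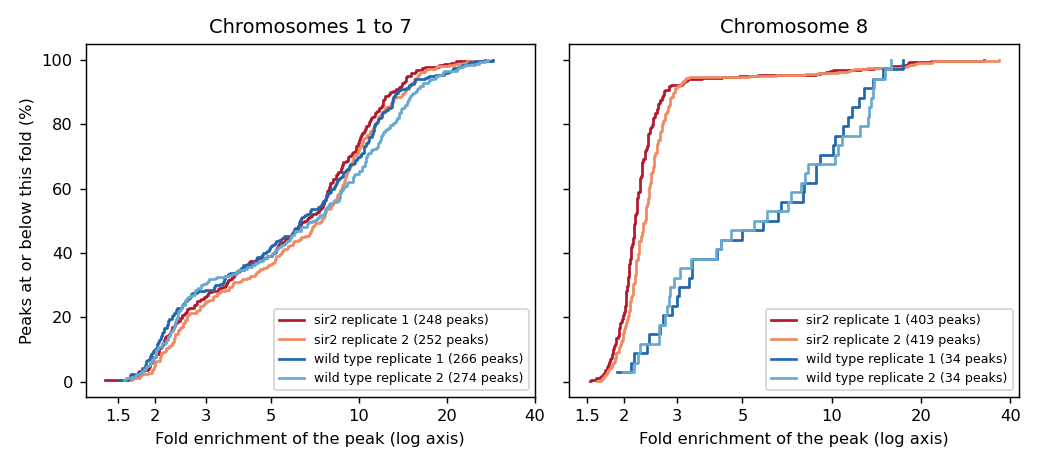
Share of peaks at or below each fold enrichment (logarithmic horizontal axis), by library, for chromosomes 1 to 7 and for the eighth chromosome. On the eighth chromosome the sir2 curves lie to the left, with median folds of 2.17 and 2.35 against 6.22 and 5.77 in wild type; on the others the medians are 6.55 and 7.43 against 6.29 and 6.98.

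The positions of the weak peaks were only partly shared between the 2 sir2 libraries. Of all eighth-chromosome peaks, wild-type sites included, 54.8% of the first list and 55.1% of the second met a peak of the other. On chromosomes 1 to 7 the shares were 85.1% and 84.9%. The sir2 peaks covered 22.8% and 21.9% of the eighth chromosome, against 2.64% and 2.59% of chromosomes 1 to 7. These shares are therefore not directly comparable, and how much overlap comes from density alone was not tested. Of 570 linked regions, 174 (30.5%) were gained and 23 (4.04%) were in all 4 lists. With a −log10 q of at least 10 asked of every peak, 2 regions of this chromosome and 4 of the others counted as gained. The strongest of the 174 lay from 499081 to 500614 in GIM4, a prefoldin subunit gene, and had folds of 4.15 and 6.49. The next, between TDEL0H04460 and GDH1, a glutamate dehydrogenase gene, had folds of 3.16 and 2.85. The others of the 10 strongest lay in TDEL0H00530, SPT10, TDEL0H01240, NAP1, SPO22, RPN2, GSM1 and SEC28, with folds between 2.47 and 3.24. NAP1 encodes a histone chaperone, RPN2 a proteasome subunit and SEC28 a coat protein of transport vesicles.

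More genes of the eighth chromosome held a summit in sir2 than in wild type. Of its 471 genes, 245 and 257 did in the sir2 lists and 7 and 7 in the wild-type lists; 163 (34.6%) did in both sir2 lists and no wild-type list. The 168 genes with a summit in both sir2 lists had a median length of 1477.5 bp, against 937.5 bp in 276 other protein-coding genes. With 1 kb on either side, 313 of the 471 genes (66.5%) had a peak in both sir2 lists and no wild-type list, and 8 (1.7%) the other way round. Of 7 ribosomal protein genes, 6 had a peak in both sir2 lists and no wild-type list. All 3 genes of a list set by symbol prefixes, ARN2, THI4 and PHO86, did so too. ORC4, which encodes a subunit of the origin recognition complex, and PYK2, a pyruvate kinase gene, had a peak in all 4 lists. Of 16 tRNA genes, 15 and 15 had a peak in sir2 and 7 and 6 in wild type. Over all genes of this chromosome, 86.6% and 87.7% had a peak in the sir2 lists and 14.6% and 14.4% in the wild-type lists. On chromosomes 1 to 7 the 56 ribosomal protein genes had 8 and 8 with a peak in sir2, against 10 and 7 in wild type. The 177 tRNA genes there had 56 and 58 in sir2, against 63 and 63 in wild type. The 11 glycolysis genes had none in any of the 4 lists, and the 14 genes of the pre-replicative complex had 3 and 3 in sir2, against 4 and 3 in wild type. Over all genes of these chromosomes the share was 11.7% and 11.7% in sir2, against 12.5% and 12.5% in wild type.

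The Orc1 regions of the eighth chromosome that wild type also had were covered over a greater length in sir2, and most stood higher within their list. At 18 regions found in all 4 lists over 40 kb from its ends, peaks covered a median of 2115 and 2116.5 bp in sir2, against 884 and 927.5 bp in wild type. These lengths add up all peaks linked into a region, and some regions held several peaks of a sir2 list. The sir2 lengths exceeded both wild-type lengths at 18 of the 18 (100%), against 54 of 173 (31.2%) on chromosomes 1 to 7. Both sir2 ranks among all 216 shared regions were stronger than both wild-type ranks at 17 of the 18 (94.4%), against 45 of 173 (26.0%). The median fold of the 18 regions over that of the 173 was 2.02 and 1.81 within the sir2 lists, and 1.02 and 0.838 within the wild-type lists.

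The strongest wild-type region of this chromosome lay between SPO22 and AIM9, with peaks of 1120 and 937 bp in wild type. Linked with the sir2 peaks, the region ran from 298173 to 303346. It had folds of 32.6 and 36.5 in sir2, ranking first in both lists, and of 17.4 and 15.1 in wild type, ranking 14 and 31. The region between RAD7, a DNA repair gene, and TDEL0H01440 had folds of 21.6 and 21.9 in sir2, against 13.7 and 13.9 in wild type. Of the 5 shared regions within 20 kb of its ends, 3 did not share this rise of fold. The left end, at 1 to 1806, had folds of 12.6 and 11.6 in sir2 and 11.3 and 13.7 in wild type. At the right end, the region from 821153 to 832448 had folds of 4.27 and 3.29 in sir2, against 14.9 and 13.3 in wild type. The outermost region there, from 832854 to 833999, had folds of 9.56 and 10.5 in sir2, against 12.4 and 15.8 in wild type. The regions from 7601 to 9054 and from 817837 to 820921 had higher folds in sir2. These were 9.85 and 8.11, against 4.98 and 5.47 in wild type, and 13.9 and 17.3, against 8.85 and 12.4.

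Orc1 peaks at the ribosomal DNA were found in wild type and not in sir2. In the array on the eighth chromosome, with 5 kb on either side, the sir2 lists had 0 and 0 peaks, against 3 and 3 in wild type, which covered 4218 and 3701 bp. Of these, 1 lay beside the first 25S gene and the others between an 18S and a 5S gene, as the gene names give them. Their folds were 3.39, 2.999 and 3.04 in the first wild-type list and 2.62, 2.85 and 2.82 in the second. They were the 3 lost regions of the 570 on this chromosome (0.526%). The kos3 library had 3 peaks there.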

How the data were processed

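Each of the 15 deposited lists held the peaks of 1 library; 4 were used here, with the kos3 list for single values. Reads were aligned with Bowtie2 2.3.4.1 and peaks called with MACS2 2.2.7.1, tools named per the submitters' processing notes; their settings are not given in the sources used here. Peak names held the word subsample, a step the labels do not describe. For each peak the authors deposited a position and summit, a fold (a linear ratio over background), a −log10 p-value and −log10 q-value, and an integer score. The lowest −log10 q was 1.38. Read depth is unknown, so no value was adjusted for it, and the number of peaks limits the precision.

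Positions were written 1-based and set against 5174 genes of assembly ASM24337v1. The chromosomes were matched by order and checked: strong wild-type summits lay outside their own chromosome's genes in 68.8% to 87.3% of cases, against at most 62.1% with another's. Each chromosome was taken to end at its outermost peak or gene. Peaks linked by at least 1 bp formed regions. Group values were compared by two-sided exact permutation with Benjamini-Hochberg adjustment over 10 comparisons, in Python 3.11.15 with pandas 2.3.3, numpy 2.4.6 and scipy 1.17.1. The region linking was tested on simulated data.

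Regions were named by rule: all gained regions and the 10 strongest lost ones of chromosomes 1 to 7, the 5 most raised and 5 most lowered by rank and by width, every chromosome end, and on the eighth chromosome the 10 strongest gained and 5 strongest wild-type regions. The members, rules and gene lists were chosen with earlier results of these data known. Alternatives were stricter q-values, other overlap rules, equal peak numbers, other end windows, each replicate left out and ratios within replicate numbers.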

Additional observations from a re-analysis of the deposited data

How the results depend on the processing

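Of 119 alternative values of 15 results, 3 changed sign, 21 untested shares or counts moved beyond the spread between libraries or by over 1.5 times, and the other 95 kept the direction of a tested comparison or, for shares and counts, stayed within those limits. Tested ratios could still change in size: with −log10 q of at least 5 and of at least 10, the ratio of peak numbers on the eighth chromosome was 6.91 and 1.63, against 12.1, and that of covered length 3.49 and 1.60, against 5.13. The signs changed for the sir2 minus wild-type share of summits outside genes on chromosomes 1 to 7 (−0.908 percentage points), at 1.29 with −log10 q of at least 5, 2.34 with at least 10, and between −2.71 and 0.892 with a replicate left out. With −log10 q of at least 5 and of at least 10, gained regions numbered 51 and 6, against 176, and sir2 peaks in no wild-type list were 87.3% and 43.9% on the eighth chromosome, against 92.2%, and 5.42% and 4.11% on chromosomes 1 to 7, against 11.4%. Lost regions numbered 9 with at least 10, against 15. The share of wild-type regions found in sir2 (93.5%) was 94.7% and 95.4% at these thresholds, 92.5% with summits within 200 bp and 94.3% with equal peak numbers. With summits within 200 bp, sir2 peaks in no wild-type list were 19.99% on chromosomes 1 to 7 and 94.0% on the eighth. With a replicate left out, gained regions ranged from 177 to 422 (422 and 393 without the first and second sir2 library), lost regions from 16 to 79 (79 and 64 without the first and second wild-type library), wild-type regions found in sir2 from 72.3% to 93.8%, and eighth-chromosome sir2 peaks in no wild-type list from 92.1% to 93.1%; a single list then defines the group. The ratio at the ends ranged from 0.167 without the first wild-type library to 0.392 without the second. Replicate numbers did not pair the samples: deviations of same-numbered libraries correlated at 0.036 for fold and 0.024 for width over 163 sites. The replicate block gave 74.7% for wild-type regions found in sir2, since each pair then uses 1 wild-type list. The cause of the other changes was not tested. Without read counts, weak peaks cannot be related to depth.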
